A study of Mus musculus with 8 samples.

Results

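The 10 genes described here encode receptors, and 1 ligand, through which a T cell receives a second signal beside its antigen receptor. They were chosen by name, without a rule on measured values but with earlier results of these data known. They are 10 of the 28239 genes in the deposited count table. The inhibitory receptors are Pdcd1 (PD-1), Lag3, Havcr2 (TIM-3), Tigit, Btla and Cd5, the costimulatory receptors are Icos, Cd28 and Tnfrsf9 (4-1BB), and the ligand is Cd274 (PD-L1). 9 of the 10 passed the filter of at least 2 CPM (the count of a gene scaled to a common library total) in at least 4 of the 8 libraries, and Tigit did not.

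The question was how T_regs_ made from Alox15-deficient naïve CD4+ T cells differ in their transcripts from WT T_regs_. Naïve CD4+ T cells were taken by negative selection from the spleens of 4 Alox15-/- and 4 WT mice on the C57BL/6 background, and the study's methods give an age of 10 to 12 weeks and both sexes. Both groups were kept in culture until day 2 on CD3/CD28 activation beads, TGF-β at 5 ng/ml and IL-2 at 100 U/ml, so every library, WT included, comes from cells stimulated through CD28. RNA was counted by MACE-seq, a method that reads 1 tag near the 3′ end of each transcript. The Alox15 deletion was in the whole animal, the methods name different suppliers for the Alox15-deficient and the C57BL/6 mice, and no source states that they were littermates. No sort for FOXP3 before RNA extraction is described, so each library is a bulk culture in which fewer cells of a type and less RNA per cell cannot be told apart.

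Checkpoint receptors limit T cell activation. PD-1, BTLA and TIGIT carry tyrosine motifs in their tails that recruit phosphatases, whereas LAG-3 binds MHC class II and CD5 dampens signalling of the antigen receptor. Many of their genes are switched on by the antigen receptor itself, so their transcripts also serve as signs of recent activation. CD28, ICOS and 4-1BB do the opposite and add survival and growth signals, and T_regs_ carry receptors of both kinds.

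The libraries held between 3723151 and 9538962 counts, with a median of 5907410.5. Alox15, the targeted gene, was counted at 70.5, 69.2, 63.7 and 65.3 CPM under the Alox15-/- label and at 1.88, 2.56, 7.77 and 9.02 CPM in WT (means ± SD of 67.2 ± 3.18 and 5.31 ± 3.61, n = 4 each), the reverse of what the label would lead one to look for (log2 fold change 3.65, SE 0.299, edgeR quasi-likelihood adjusted p = 1.08e-05). A 3′ tag outside the deleted part of a gene checks nothing, and the deleted part is not given in the sources used here, so every direction below is for the libraries labelled Alox15-/- and rests on that label. T cell markers summed to between 3300.1 and 3849.3 CPM in the libraries labelled Alox15-/- and to between 3642 and 3847.3 CPM in WT, while Foxp3, the T_reg_ transcription factor, was at 93.4 ± 17.1 and 124.9 ± 47.4 CPM (n = 4 each, log2 fold change -0.42, adjusted p = 0.655). The Foxp3 difference was -0.11 without WT replicate 3 (adjusted p = 0.878) and passed the threshold with no filter on low counts (-0.45, adjusted p = 0.0189). Markers of other cells stood higher in the libraries labelled Alox15-/- without overlap for the erythroid (908 to 3491 against 33.9 to 122.8 CPM), myeloid (49.5 to 337 against 12.5 to 19.9), mast cell and basophil (133 to 323 against 57.2 to 81.8), eosinophil (19.3 to 69.2 against 1.25 to 10.3) and NK and gamma-delta T cell lists (91.8 to 169 against 31.2 to 53.5). CD8 T cell markers had a lower mean under the Alox15-/- label, with overlap (12.1 to 21.9 against 21.5 to 31.8 CPM, exact p = 0.0857). So did B cell markers (5.79 to 8.51 against 8.31 to 21.7 CPM, exact p = 0.0571). Of the 7 B cell markers 2 were tested. Ms4a1 fell (log2 fold change -2.64, adjusted p = 0.00413) and Cd79b did not (0.11, adjusted p = 0.967). Dendritic cell markers summed to means of 4.78 and 4.05 CPM (exact p = 0.4). For the 5 lists without overlap, the two-sided exact permutation p was 0.0286 for each, the smallest that 4 against 4 libraries allow, and 0.0514 after adjustment over the 9 lists compared. WT replicate 4 was the highest of the 8 libraries for 17.9% of the genes tested and WT replicate 3 for 17.5%, against 8.25% to 13.5% in the other libraries. Values that rest on them are given with and without the former where it matters, and for some genes without the latter. Medians were redone without the former only.

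None of the 9 receptor and ligand genes tested passed an adjusted p of 0.05 between the groups. Of all 12700 genes tested 158 did, or 1.24%, with 133 (1.05%) above WT and 25 (0.197%) below it under the Alox15-/- label. 1 of the 9, Lag3, had an unadjusted p under 0.05, beside 7.84% of all genes tested. In none of the 9 were the groups free of overlap, against 5.25% of genes. The median log2 fold change of the 9 was -0.15, with 3 above and 6 below 0, where the median of all genes tested was -0.01 and 48.2% lay above 0. Without WT replicate 4 the median of the 9 was -0.01, with 4 above and 5 below 0.

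**Figure D1:**
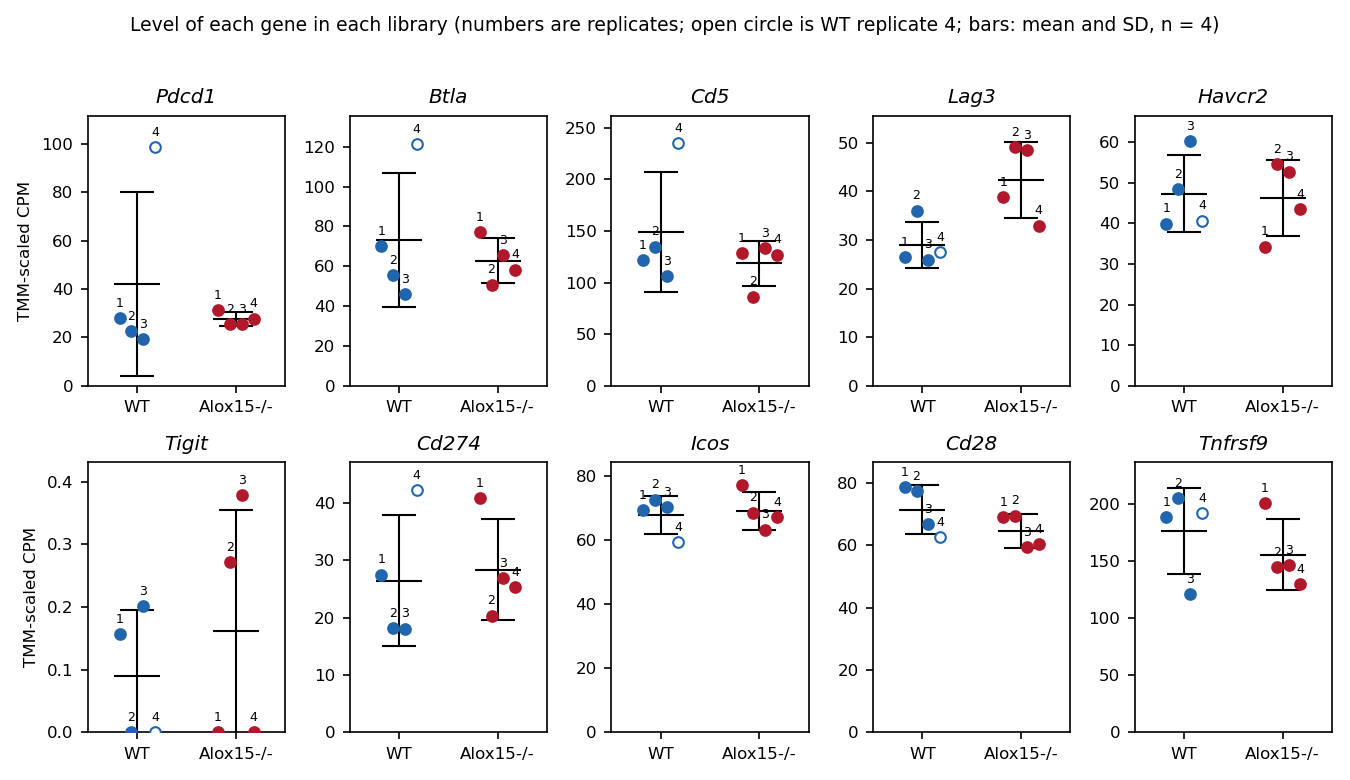
Level of each of the 10 genes in TMM-scaled CPM (y axis, from 0, each panel with its own scale) in the 4 WT and 4 Alox15-/- libraries (x axis). Points are libraries numbered by replicate, the open circle is WT replicate 4, and the bars give the mean and SD. WT replicate 4 lies above all other libraries for Pdcd1 (98.6 CPM), Btla (121.5), Cd5 (235) and Cd274 (42.2), and Tigit lies at or below 0.378 CPM in all 8.

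Pdcd1 encodes PD-1, the receptor of PD-L1 and PD-L2, and lies on chromosome 1 from 94038305 to 94052553 on the minus strand (GRCm38, GENCODE M21, ENSMUSG00000026285.7). Its level was 31.4, 25.5, 25.5 and 27.8 CPM in the libraries labelled Alox15-/- (replicates 1 to 4) and 27.9, 22.6, 19.2 and 98.6 CPM in WT. The libraries labelled Alox15-/- were close together, and all 4 lay between WT replicates 2 and 4. WT replicate 4 stood alone at 4.25 times the mean of the other 3 WT libraries, the 11th largest ratio among the 12700 genes. The group means of 27.5 ± 2.77 and 42.1 ± 37.9 CPM (n = 4 each) gave a log2 fold change of -0.57 (SE 0.399, 95% interval -1.42 to 0.28, adjusted p = 0.790). Without WT replicate 4 the sign turned, to 0.26 (-0.08 to 0.60, adjusted p = 0.737), while without WT replicate 3 the difference was -0.82 (adjusted p = 0.561). With no filter on low counts Pdcd1 passed the threshold at -0.60 (adjusted p = 0.00613). The sign of the PD-1 difference thus turned with 1 library.

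Btla encodes an inhibitory receptor of the immunoglobulin family that binds HVEM, the product of Tnfrsf14, and lies on chromosome 16 from 45224315 to 45257670 on the plus strand (ENSMUSG00000052013.15). It was at 77.0, 50.8, 65.4 and 58.3 CPM in the libraries labelled Alox15-/- and at 70.2, 55.6, 46.0 and 121.5 CPM in WT. WT replicates 1 to 3 fell among or just below the libraries labelled Alox15-/-, and WT replicate 4 was 2.12 times the mean of the other 3. The log2 fold change was -0.21 (SE 0.235, interval -0.71 to 0.29, adjusted p = 0.880), and 0.14 (-0.19 to 0.47, adjusted p = 0.870) without WT replicate 4. Without WT replicate 3 it was -0.38 (adjusted p = 0.680).

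Cd5 encodes a scavenger receptor family protein on T cells whose level follows the strength of antigen receptor signals, and lies on chromosome 19 from 10717116 to 10739002 on the minus strand (ENSMUSG00000024669.8). It was at 128, 86.3, 133 and 127 CPM in the libraries labelled Alox15-/- and at 122, 135, 106 and 235 CPM in WT. Replicate 2 was the low library of the group labelled Alox15-/-, and replicate 4 the high one of WT, 1.94 times the mean of the other 3. The log2 fold change of -0.32 (SE 0.208, interval -0.76 to 0.12, adjusted p = 0.773) went to -0.01 (-0.31 to 0.28, adjusted p = 0.991) when WT replicate 4 was left out. It went to -0.45 (adjusted p = 0.543) when WT replicate 3 was left out.

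Cd274 encodes PD-L1, the ligand through which a cell engages PD-1 on a neighbour, and lies on chromosome 19 from 29367455 to 29388095 on the plus strand (ENSMUSG00000016496.7). The annotation has an antisense gene, AC119228.1, across it, and no source states that the counting used strand, so reads of the pair cannot be told apart. Its level was 40.8, 20.4, 26.9 and 25.3 CPM in the libraries labelled Alox15-/- and 27.4, 18.1, 18.1 and 42.2 CPM in WT. Each group had 1 library above 40 CPM, replicate 1 of the group labelled Alox15-/- and replicate 4 of WT. The means of 28.3 ± 8.76 and 26.4 ± 11.4 CPM (n = 4 each) gave a log2 fold change of 0.12 (SE 0.259, interval -0.43 to 0.67, adjusted p = 0.946). Without WT replicate 4 the estimate was 0.43 (-0.03 to 0.88, unadjusted p = 0.0643, adjusted p = 0.637), and the sign turned without replicate 1 of the group labelled Alox15-/- (-0.10) or WT replicate 2 (-0.02) or 3 (-0.03).

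**Figure D2:**
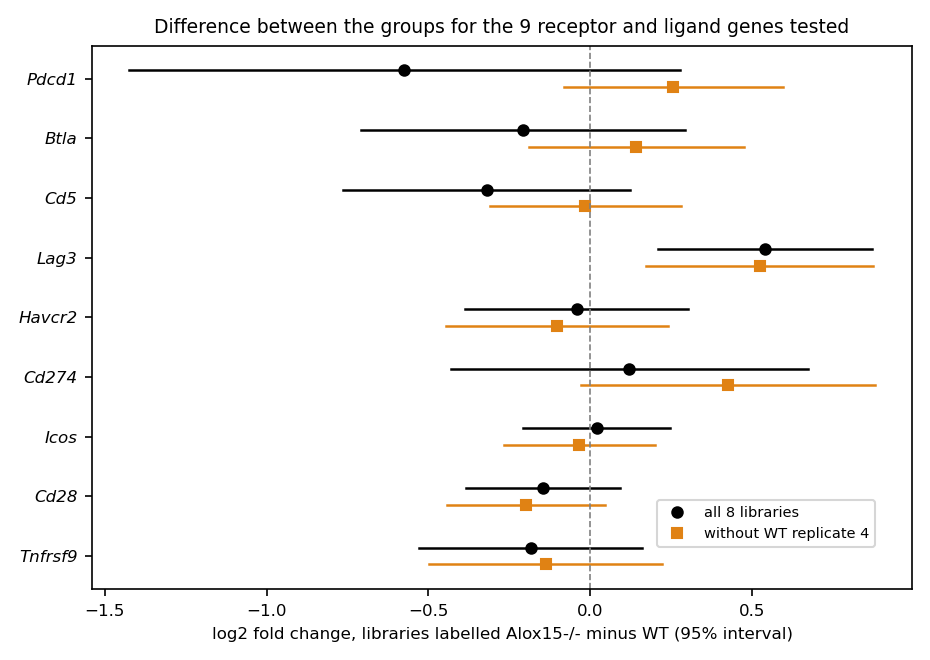
Log2 fold change between the libraries labelled Alox15-/- and WT (x axis) for the 9 genes tested (y axis), with 95% intervals from edgeR. Black circles use all 8 libraries and orange squares leave out WT replicate 4. Pdcd1 goes from -0.57 to 0.26 and Btla from -0.21 to 0.14, Lag3 stays at 0.54 and 0.52, and every other interval holds 0 in both fits.

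Pdcd1, Btla, Cd5 and Cd274 were the 4 genes of the 10 that had their highest level in WT replicate 4, so the 250 bases before their RefSeq starts (GRCm38.p6) are given, 5′ to 3′ on the strand of the gene. They were searched on both strands for GGAAA, the core that NFAT proteins bind, and for TGANTCA (AP-1) and TTCNNNGAA (STAT), and matches are in capitals. The windows are chr1:94052554-94052803 (minus strand) for Pdcd1, chr16:45224087-45224336 (plus) for Btla, chr19:10738975-10739224 (minus) for Cd5 and chr19:29367188-29367437 (plus) for Cd274.
Pdcd1: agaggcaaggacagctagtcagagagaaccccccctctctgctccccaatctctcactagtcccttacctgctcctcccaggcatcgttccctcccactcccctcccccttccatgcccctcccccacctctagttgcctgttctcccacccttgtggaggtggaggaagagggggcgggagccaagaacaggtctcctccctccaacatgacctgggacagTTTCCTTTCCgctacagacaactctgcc
Btla: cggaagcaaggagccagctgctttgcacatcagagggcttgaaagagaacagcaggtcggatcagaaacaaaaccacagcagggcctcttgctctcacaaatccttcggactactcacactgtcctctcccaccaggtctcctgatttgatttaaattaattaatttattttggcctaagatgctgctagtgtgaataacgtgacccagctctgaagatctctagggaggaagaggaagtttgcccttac
Cd5: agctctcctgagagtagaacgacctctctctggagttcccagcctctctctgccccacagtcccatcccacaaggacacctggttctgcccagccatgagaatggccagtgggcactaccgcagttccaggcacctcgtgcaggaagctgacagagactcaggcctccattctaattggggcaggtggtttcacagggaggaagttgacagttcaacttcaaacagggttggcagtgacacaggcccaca
Cd274: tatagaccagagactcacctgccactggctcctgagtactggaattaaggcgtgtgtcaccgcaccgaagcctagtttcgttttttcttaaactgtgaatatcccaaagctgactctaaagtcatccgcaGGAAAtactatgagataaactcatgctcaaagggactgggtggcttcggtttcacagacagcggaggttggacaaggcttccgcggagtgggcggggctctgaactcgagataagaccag
The Pdcd1 window held 2 adjacent copies of GGAAA read on the opposite strand, starting 28 and 23 bases before the start, and the Cd274 window held 1, 120 bases before a RefSeq start that lies outside the GENCODE transcripts of the gene, unlike the other 3 starts. The Btla and Cd5 windows held none of the 3 motifs. GGAAA was in 55.6% of the 32851 promoter windows of this length, TGANTCA in 6.75% and TTCNNNGAA in 7.02%. The 4 genes shared no motif of this set. Of the members that were not highest in WT replicate 4 and had an entry, Tigit held 2 copies of GGAAA, Havcr2 held 1 of TGANTCA, and the windows of Tnfrsf9 held 2 and 3 of GGAAA, with 1 each of TGANTCA and TTCNNNGAA in the latter. The RefSeq starts of Tigit and Havcr2 also lie outside the GENCODE transcripts. A match is only a run of letters.

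WT replicate 4 also had the highest level of other genes of activation. It was the highest of the 8 libraries for 11 of the 16 T cell activation genes listed for this work. Of all genes tested it was the highest for 17.9%. Il2, the growth factor that activated T cells secrete, was at 288 CPM there against 31.9 to 43.1 in the other 3 WT libraries (7.55 times their mean), and the immediate early gene Egr1 was at 219 CPM against 53.4 to 73.8. Nr4a1, which the antigen receptor induces, was at 419 CPM against 131 to 153. Tnfsf9, the ligand of 4-1BB, was at 18.7 CPM against 2.32 to 4.23. The rest of the activation list was not highest in WT replicate 4. Mki67 was at 0.470, Il2rb 0.840, Il2ra 0.890, Tfrc 0.944 and Irf8 0.992 times the mean of the other 3 WT libraries. Il2, Egr1, Nr4a1, Il2ra, Tfrc and Irf8 were named here after their values had been seen. Likewise, 5 other members did not share this library's pattern. Lag3 was at 0.932, Havcr2 0.822, Icos 0.838, Cd28 0.843 and Tnfrsf9 1.12 times the mean of the other 3 WT libraries. The part of activation in the difference between WT libraries was not tested.

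**Figure D3:**
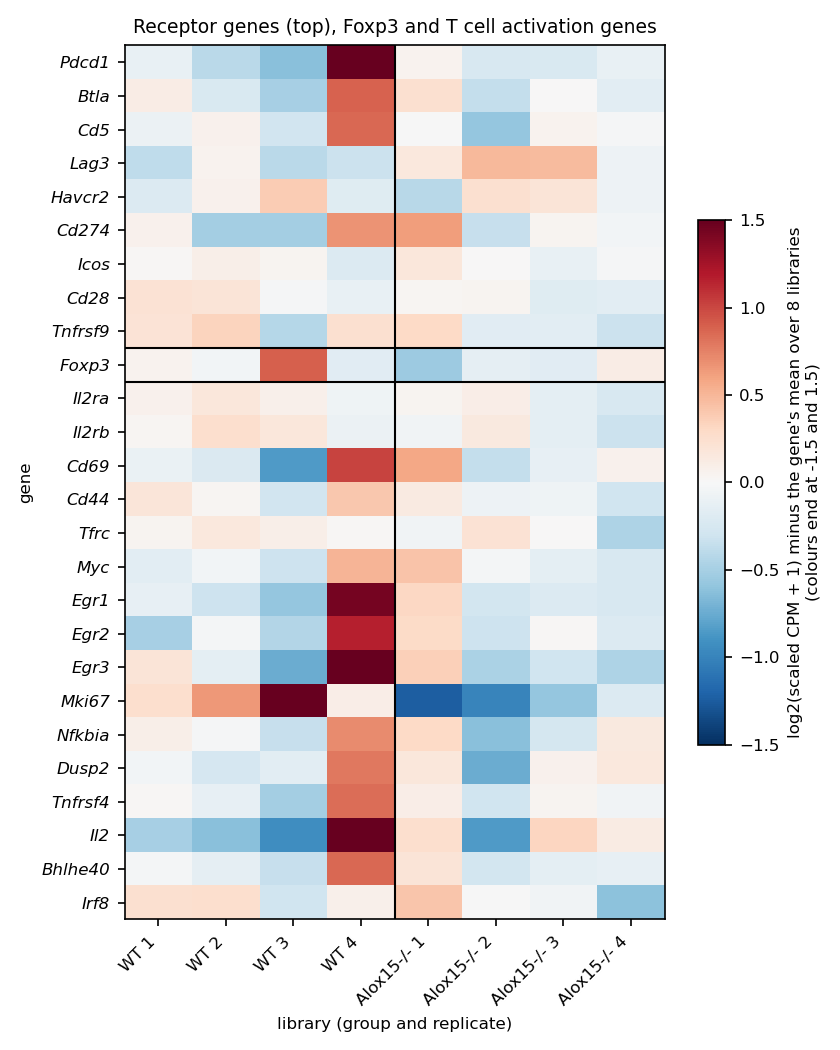
Each row is a gene (9 receptor and ligand genes, Foxp3, then 16 T cell activation genes) and each column a library, 4 WT then 4 Alox15-/-. Colour gives log2(scaled CPM + 1) minus the mean of the gene over the 8 libraries, with colours ending at -1.5 and 1.5. WT replicate 4 is the darkest red column for Pdcd1, Egr1, Egr3 and Il2, and WT replicate 3 is the highest for Foxp3 and Mki67.

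Within the libraries labelled Alox15-/-, replicate 1 had the highest Pdcd1, Btla, Cd274, Tnfrsf9 and Icos and the lowest Havcr2. WT replicate 3 was the lowest of the 8 libraries for 5 of the 9 members tested (Pdcd1, Lag3, Btla, Cd274 and Tnfrsf9) and the highest for Havcr2. It also had the highest Foxp3 (195 CPM, against 93.4 to 109 in the other WT libraries).

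Lag3, a receptor related to CD4 that binds MHC class II, had the smallest p of the members. It lies on chromosome 6 from 124904361 to 124911705 on the minus strand (ENSMUSG00000030124.2). Its level was 38.9, 49.1, 48.4 and 32.9 CPM in the libraries labelled Alox15-/- and 26.5, 36.0, 25.9 and 27.5 CPM in WT. 3 of the 4 libraries labelled Alox15-/- lay above every WT library, and replicate 4, at 32.9, lay below WT replicate 2. The means were 42.3 ± 7.82 and 29.0 ± 4.74 CPM (n = 4 each), 1.46-fold apart with a 95% interval of 1.16 to 1.83. On the log2 scale the difference was 0.54 (SE 0.155, unadjusted p = 0.00327), the 231st smallest p of 12700, and the adjusted p of 0.180 missed the threshold. Without WT replicate 4 it was 0.52 (0.17 to 0.87, adjusted p = 0.241), and the adjusted p passed the threshold only with no filter on low counts (0.0309), with a range of 0.0309 to 0.517 over 17 alternatives.

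NK and gamma-delta T cells can also express Lag3, and the list of 8 markers of these cells moved with it, although negative selection of naïve CD4+ T cells is meant to remove both. 6 of the 8 were tested and 5 of these rose, among them Trdc, the constant region of the delta chain (65.6 against 18.4 CPM, log2 fold change 1.82). Of the NK cell genes of the list, Klrd1 rose (10.6 against 3.98 CPM, log2 fold change 1.36, adjusted p = 0.0278), Klrk1 did not pass (1.06, adjusted p = 0.324), and Klrb1c (1.73 and 1.02 CPM) and Ncr1 (0.343 and 0.416 CPM) were not tested. Within the group labelled Alox15-/- the summed list was at 143, 169, 148 and 91.8 CPM in replicates 1 to 4, in the same order of libraries as Lag3, an order that the myeloid (83.3, 337, 208 and 49.5 CPM) and eosinophil (43.0, 69.2, 59.4 and 19.3 CPM) sums also had. Within WT it was at 42.2, 31.2, 53.5 and 44.3 CPM, and the library with the highest Lag3 had the lowest sum. The part of these cells in the level of Lag3 was not tested. Cd4, whose gene lies 16.1 kb from Lag3 on the same strand, went the other way, at 268.7 ± 40.0 CPM in the libraries labelled Alox15-/- and 335.9 ± 11.1 CPM in WT (n = 4 each, log2 fold change -0.32, unadjusted p = 0.0107, adjusted p = 0.357), without overlap. The genes whose log2 CPM was most like that of Lag3 over the 8 libraries were Emid1 (Pearson r 0.972), Dcp2 (0.972) and Pltp (0.963), given as a description over libraries that share their group and depth.

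Havcr2 encodes TIM-3, a receptor of galectin-9 and phosphatidylserine, and lies on chromosome 11 from 46454935 to 46481255 on the plus strand (ENSMUSG00000020399.14), 23.9 Mb from Alox15. It was at 34.3, 54.6, 52.8 and 43.6 CPM in the libraries labelled Alox15-/- and at 40.0, 48.4, 60.3 and 40.7 CPM in WT. The groups overlapped over most of their range, with the lowest library in one and the highest in the other. The log2 fold change was -0.04 (SE 0.162, interval -0.39 to 0.30, adjusted p = 0.971), and its sign turned without WT replicate 3 (0.11) or replicate 1 of the group labelled Alox15-/- (0.08).

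Tigit, whose product competes with CD226 for the poliovirus receptor and is a known mark of many T_regs_ in vivo, was hardly counted. It lies on chromosome 16 from 43648867 to 43664146 on the minus strand (ENSMUSG00000071552.5). Its counts were 0, 1, 2 and 0 in the libraries labelled Alox15-/- and 1, 0, 2 and 0 in WT, 3 in each group. These are at the floor of 3 counts over a group, 0.148 CPM in the libraries labelled Alox15-/- and 0.110 CPM in WT by counting error alone, so no fold is given. Any difference in Tigit was not detectable at this depth. Cd226, the activating receptor that shares its ligand, was at 49.1 CPM in WT replicate 4 and between 14.7 and 28.5 CPM in the other WT libraries, and Cd226 was named after its values had been seen.

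Of the costimulatory receptors, Icos and Cd28 had the smallest standard errors of the members. Icos, which supports T_reg_ survival and IL-10 production, lies on chromosome 1 from 60977927 to 61000320 on the plus strand (ENSMUSG00000026009.14), where the annotation also has Gm37039, an unproven transcript on the same strand. It was at 77.2, 68.7, 63.4 and 67.3 CPM in the libraries labelled Alox15-/- and at 69.5, 72.7, 70.4 and 59.4 CPM in WT. The extremes of the 8 libraries were replicate 1 of the group labelled Alox15-/- and replicate 4 of WT. The log2 fold change of 0.02 had the narrowest interval of the members, -0.21 to 0.25 (SE 0.107, adjusted p = 0.982), or a fold between 0.866 and 1.19.

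Cd28, the receptor of CD80 and CD86 and the target of the activation beads, lies on chromosome 1 from 60716800 to 60773359 on the plus strand (ENSMUSG00000026012.2). It was at 69.0, 69.5, 59.4 and 60.3 CPM in the libraries labelled Alox15-/- and at 78.6, 77.2, 66.8 and 62.5 CPM in WT. WT replicates 1 and 2 lay above all 4 libraries labelled Alox15-/-, and WT replicates 3 and 4 lay among them. The log2 fold change was -0.15 (SE 0.112, interval -0.38 to 0.09, adjusted p = 0.818).

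Tnfrsf9 encodes 4-1BB, a receptor of the TNF family that activation induces and that many T_regs_ carry. It lies on chromosome 4 from 150914562 to 150946102 on the plus strand (ENSMUSG00000028965.13), inside the span of Camta1 on the other strand. Its level was 201, 145, 147 and 130 CPM in the libraries labelled Alox15-/- and 188, 205, 121 and 192 CPM in WT. Replicate 1 was the highest of the group labelled Alox15-/- and replicate 3 the lowest of WT. The log2 fold change was -0.18 (SE 0.162, interval -0.53 to 0.16, adjusted p = 0.845). It was -0.33 without the former library, -0.32 without the latter and -0.10 without WT replicate 2 or replicate 4 of the group labelled Alox15-/-.

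Related genes were read from lists of ligands, other receptors, signal carriers, transcription factors, controllers of Cd274 and T cell activation genes, 138 in all. 135 were in the table and 121 were tested, of which 1 was called above WT and 1 below it, together 1.65% beside 1.24% of all genes. 15 had an unadjusted p under 0.05 (12.4%, beside 7.84%), and 42 had a log2 fold change above 0 (34.7%, beside 48.2% of all genes). The gene called below WT, Mki67, was from the activation list, whose 16 genes all lay below 0. Without WT replicate 4 it was 72 of the 121 (59.5%, beside 50.1%), and the median went from -0.05 to 0.05.

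**Figure D4:**
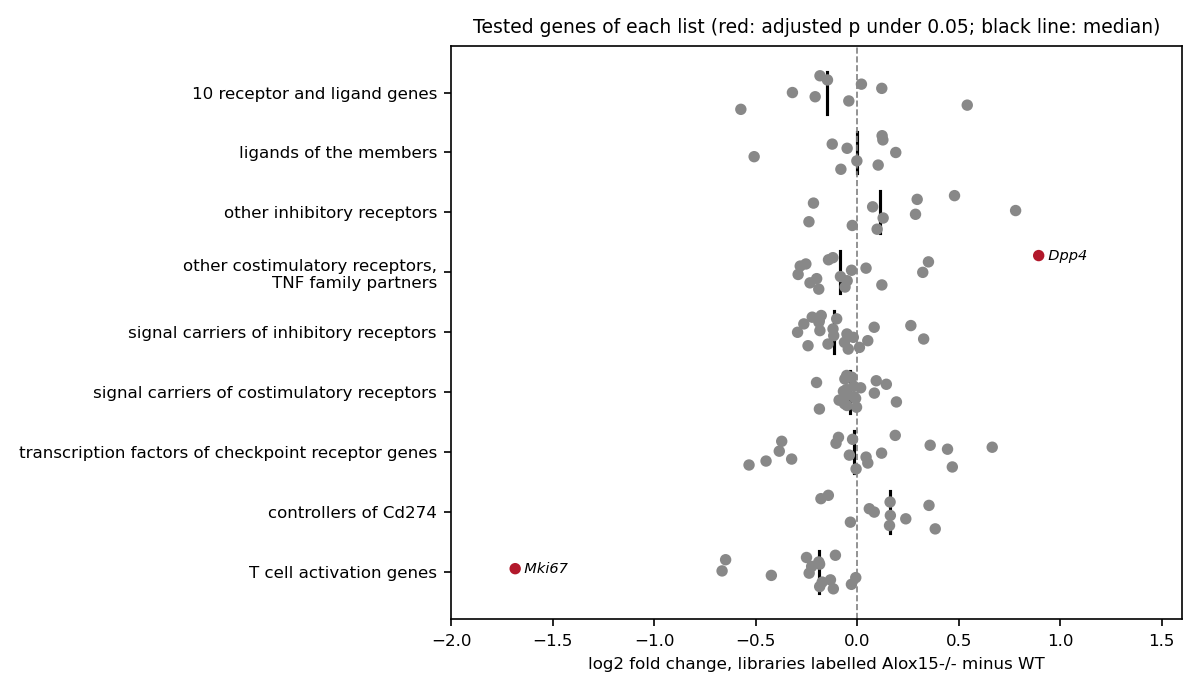
Log2 fold change between the libraries labelled Alox15-/- and WT (x axis) of each tested gene in the 10 genes described and in 8 lists of related genes (y axis). Each point is a gene, red points have an adjusted p under 0.05, and black lines are list medians. Dpp4 (0.89) and Mki67 (-1.69) are the red points, and list medians lie between -0.19 and 0.16.

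Of 13 ligands 9 were tested and none was called in either direction, with 4 above and 5 below 0 and a median of -0.002 (0.13 without WT replicate 4). Pdcd1lg2 (PD-L2) was at 9.39 ± 2.76 CPM in the libraries labelled Alox15-/- and 10.4 ± 5.79 CPM in WT (n = 4 each, log2 fold change -0.08). The CD28 and CTLA-4 ligands Cd80 and Cd86 had log2 fold changes of 0.10 and -0.002, and Tnfrsf14 (HVEM) had 0.19. Tnfsf9 (-0.51), Lgals3 (0.12) and Hmgb1 (0.13) had the smallest p of the list, the lowest of these adjusted values being 0.871, and the sign of Tnfsf9 turned without WT replicate 4 (0.51). Lgals9, the TIM-3 ligand, named after its values had been seen, was at 201 to 233 CPM under the Alox15-/- label and 191 to 243 CPM in WT. Fgl1, Nectin2, Ceacam1 and Icosl did not pass the filter. Icosl, the ligand of ICOS, had 0 to 6 counts a library, at 0.719 to 1.63 CPM under the Alox15-/- label and 0 to 0.202 CPM in WT, without overlap and not tested.

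Of 17 other inhibitory receptors 10 were tested and none was called, with a median of 0.11 and 3 below 0 (0.21 and 1 without WT replicate 4). Ctla4, the CD80 and CD86 receptor through which T_regs_ strip these ligands from antigen-presenting cells, was at 468, 456, 495 and 503 CPM in the libraries labelled Alox15-/- and 462, 466, 416 and 452 CPM in WT. The overlapping groups gave a log2 fold change of 0.10 (interval -0.09 to 0.28, adjusted p = 0.845). Pecam1 (0.48, unadjusted p = 0.00394, adjusted p = 0.204), Cd200r1 (0.78, adjusted p = 0.290) and Cd96 (-0.24, adjusted p = 0.615) had unadjusted p-values under 0.05. Cd200, the ligand of Cd200r1, had a log2 fold change of 0.08. Myeloid cells, which the negative selection is also meant to remove, can express Pecam1 and Cd200r1, and the myeloid marker sums given above differed in the same direction. The part of those cells was not tested.

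Of 21 other costimulatory receptors and TNF family partners 17 were tested, with a median of -0.08 (0.14 without WT replicate 4) and 12 below 0 (4 without it). Dpp4 (CD26), a peptidase that also costimulates T cells, rose, with 16.0 ± 1.80 CPM in the libraries labelled Alox15-/- and 8.46 ± 1.43 CPM in WT (n = 4 each, 1.86-fold, adjusted p = 0.0159), without overlap. The call was lost, with an adjusted p of up to 0.0775, when 1 of 5 libraries was left out, replicates 1, 2 and 3 of the group labelled Alox15-/- or 1 and 2 of WT. Cd48 (0.35, adjusted p = 0.178) and Slamf6 (0.32, adjusted p = 0.560), both of the SLAM family, did not pass. The T_reg_-associated TNF receptors Tnfrsf4 (OX40) and Tnfrsf18 (GITR) had log2 fold changes of -0.19 and -0.06 (adjusted p = 0.875 and 0.941), and 0.14 and 0.04 without WT replicate 4, with Tnfrsf4 at 1017 CPM in WT replicate 4 against 399 to 578 CPM in the other WT libraries.

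None of the signal carriers was called. All 21 carriers of inhibitory receptors were tested, with a median of -0.12 and 16 below 0, and the smallest p-values were those of Bag6 (-0.26, adjusted p = 0.458), a binding partner of the TIM-3 tail, Dok2 (-0.29, adjusted p = 0.510) and Dgkz (-0.22, adjusted p = 0.608). All 20 carriers of costimulatory receptors were tested, with a median of -0.04 (0.02 without WT replicate 4) and 15 below 0 (9 without it), led by Birc2 (-0.20), Pik3r1 (-0.19) and Grap2 (0.19).

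Of 20 transcription factors of checkpoint receptor genes 18 were tested and none was called, with a median of -0.01 (0.10 without WT replicate 4). Irf4 (-0.38, unadjusted p = 0.0303, adjusted p = 0.560), Eomes (0.66, adjusted p = 0.591) and Nr4a3 (-0.45, adjusted p = 0.666) had the smallest p-values. All 11 controllers of Cd274, the interferon-gamma pathway among them, were tested and none was called. 8 were above 0, with a median of 0.16 (0.07 without WT replicate 4), led by Ifngr1 (0.38, adjusted p = 0.473), Irf1 (0.35, adjusted p = 0.635) and Jak2 (0.24, adjusted p = 0.773).

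All 16 T cell activation genes had a log2 fold change below 0 with all libraries, with a median of -0.19, and 6 of the 16 were below 0 without WT replicate 4, with a median of 0.05. 1 of them fell, Mki67, a marker of cycling cells. It was at 19.8, 23.6, 31.8 and 41.4 CPM in the libraries labelled Alox15-/- and at 57.1, 75.9, 193.7 and 51.2 CPM in WT, with WT replicate 3 far above the others and no overlap (log2 fold change -1.69, SE 0.359, adjusted p = 0.0270). The call was lost with DESeq2 (adjusted p = 0.0545), limma-voom (0.0860) and edgeR's robust fit (0.476), and without replicate 1, 2 or 3 of the group labelled Alox15-/- (0.113 to 0.127), and without WT replicate 3 the difference was -1.04. Egr3 (-0.67, adjusted p = 0.729) and Il2rb (-0.19, adjusted p = 0.766) followed.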

How the data were processed

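The authors deposited 1 table of raw counts, in which each value is the count of MACE-seq tags for a gene symbol in a library, without normalization. The submitters' processing notes name Bowtie, edgeR and GRCm38 without role or version, the labels name a small RNA kit where the study's methods name the MACE-Seq kit, and the counting tool is not given in the sources used here. Columns were assigned to 4 Alox15-/- and 4 WT libraries from separate mice by their names. Counts were scaled by TMM and tested with edgeR 4.0.16 (quasi-likelihood, not robust, group as the only term) in R 4.3.3, two-sided, after dropping genes that did not reach 2 CPM in 4 or more libraries, as in the study's methods. The Benjamini-Hochberg adjustment ran over the 12700 genes left, and an adjusted p under 0.05 was called. The script was tested on simulated data. The biological coefficient of variation was 14.5%, and intervals and floors (3 counts) cover counting error only where counts alone are given. The 95% intervals of fold changes come from the fit. Marker sums were compared by exact permutation tests (scipy 1.17.1) and adjusted over the 9 lists.

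The genes described, the lists of related genes and the tests were chosen with earlier results of these data known. Named genes were all 10 members, every gene of a list past the threshold, up to 3 genes of a list with the smallest p, and Ctla4, Tnfrsf4, Tnfrsf18, Tnfrsf14, Pdcd1lg2, Cd80, Cd86 and Cd200 whatever their values, with Alox15, Foxp3 and Cd4 as checks and the 3 genes most like Lag3. Lgals9, Icosl, Cd226, Il2, Egr1, Nr4a1, Il2ra, Tfrc, Irf8, Ms4a1, Cd79b and the NK and gamma-delta T cell markers fall outside this rule. They were named after their values had been seen. Ratios of WT replicate 4 to the other WT libraries were ranked on log2(CPM + 1). Promoter windows of 250 bases came from RefSeq (GRCm38.p6), where 7 of the 10 members matched by symbol, and gene positions from GENCODE M21. Alternatives were RLE and upper quartile scaling, 3 other filters, DESeq2 1.42.0, limma-voom 3.58.1, robust edgeR, a replicate block and each library left out.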

Additional observations from a re-analysis of the deposited data

Results flagged for a closer look

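In a group of 4 libraries, the highest or lowest library was taken to stand apart when its gap to the nearest other, relative to the range of the group, passed Dixon's critical value at 95%. Of 90 groups examined 13 met this, and 5 of the 13 were in WT replicate 4. Chance gives about 1 in 20 for independent normal values, whereas these genes share libraries and some were named for a small p. The share of all genes tested that meets the rule was not computed, so the 13 are not read as an excess. Of the 10 genes, Pdcd1 stood apart in WT replicate 4 as the highest of its group (98.6 CPM), Lag3 in WT replicate 2 as the highest (36.0 CPM) and Cd5 in replicate 2 of the group labelled Alox15-/- as the lowest (86.3 CPM).

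Among related genes, WT replicate 4 stood apart as the highest for Tnfsf9 (18.7 CPM) and Jak2 (112.3 CPM) and as the lowest for Lgals3 (212 CPM) and Irf1 (49.9 CPM). WT replicate 3 stood apart as the highest for Foxp3 (195 CPM) and Cd200r1 (3.63 CPM), and WT replicate 2 as the lowest for Grap2 (13.8 CPM). In the group labelled Alox15-/-, replicate 1 was the lowest for Cd200r1 (4.10 CPM) and the highest for Egr3 (88.1 CPM), and replicate 2 was the highest for Hmgb1 (158.8 CPM).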

How the results depend on the processing

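The count of genes past the threshold over the whole table, 158, was 388 with no filter, 100 with at least 10 counts in every library and 86 to 172 with 1 library left out. None of the members passed in 16 of 17 alternatives, and 2 did with no filter, Pdcd1 (-0.60, adjusted p = 0.00613) and Lag3 (0.52, adjusted p = 0.0309). Of the related genes, 2 passed with all libraries, 8 with no filter, 1 with DESeq2, limma-voom or the robust fit, and 0 to 2 with 1 library left out. With 1 library left out, log2 fold changes ranged from -0.82 to 0.26 for Pdcd1, 0.47 to 0.66 for Lag3, -0.12 to 0.11 for Havcr2, -0.38 to 0.14 for Btla, -0.45 to -0.015 for Cd5, -0.095 to 0.43 for Cd274, -0.034 to 0.067 for Icos (-0.0018 with no filter), -0.20 to -0.097 for Cd28 and -0.33 to -0.10 for Tnfrsf9. Signs also turned for Tnfrsf4 (-0.35 to 0.14), Tnfrsf18 (-0.15 to 0.040), Pdcd1lg2 (-0.36 to 0.28, and 0.17 with limma-voom), Cd80 (-0.13 to 0.24), Cd200 (-0.086 to 0.24), Tnfsf9 (-0.84 to 0.51, and 0.0044 with limma-voom), Hmgb1 (-0.0071 to 0.25) and Egr3 (-0.93 to 0.016). Cd86, near 0 throughout (-0.12 to 0.18), was 0.0026 with RLE, 0.027 with upper quartile scaling, 0.0011 with filterByExpr, 0.0063 with at least 10 counts, 0.0025 with DESeq2, 0.037 with limma-voom and 0.0082 with the replicate block. The causes were not tested. Libraries with the same replicate number did not deviate together (r between -0.18 and 0.17, and 1 of 4 correlated best with its own number), so the numbers are not taken to pair them. The replicate block gave 146 genes called and no member, with Pdcd1 at -0.30. Marker sums kept their direction on the log2 scale and with each library left out, the alternatives run for them. At this depth Tigit could not be compared.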
